A study of Mus musculus with 4 samples.

Results

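Genes of the amino acid response and of the tRNA synthetases were followed in granulocyte/monocyte progenitors (GMP) that lacked Icsbp. GMP are bone marrow cells that give rise to granulocytes and monocytes. Icsbp, also named Irf8 (Irf-8 in the labels), belongs to the interferon regulatory factors, which control gene transcription in blood cells. The set has 40 members, 23 of them enzymes, transporters and regulators of amino acid supply and 17 of them cytosolic synthetases. They were listed by function, and the set was taken up because Asns, asparagine synthetase, was lower in Icsbp-deficient cells. No p-value is therefore printed for the members in that contrast, although their calls rest on limma p-values. The counts of members called in it support nothing by themselves. Of the 40 members, 38 had a probe set on both array types used, among 12393 named genes that did, through 78 of 22626 probe sets. Mars was read on the larger array type alone, and Pycr1 is not analysed here.

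The data are 4 Affymetrix arrays of GMP isolated by flow cytometry, 1 wild type and 1 Icsbp-deficient array of the 430A type and the same of the MOE430_2 type. Each array is a preparation of its own from mice aged 10 to 16 weeks, with marrow pooled from 10 or more wild type mice or taken from 8 or more that lacked Icsbp, so the spread between single animals was not measured. The label of 1 array of the 430A type gives no genotype, only that the mice were of mixed genetic background (C57/Bl6 - S129Ola), and the array counts as wild type here through the series' design text. The sources used here give neither the background of the other mice nor which part of Icsbp was deleted. The 2 Irf8 probe sets still gave signal in Icsbp-deficient cells, at log2 ratios of -0.48 ± 0.16 and 0.06 ± 0.12, which checks no label without knowledge of the deleted part. A further Icsbp-deficient preparation is not analysed here.

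Signals below are on a linear scale after each array was brought to a trimmed mean of 500 and the arrays of a type were matched by quantiles. Log2 ratios are Icsbp-deficient over wild type after an offset of 50 was added to each signal, which shrinks the ratios of weak signals. Each array type gave 1 ratio. The ± value is a standard error of the mean of n = 2 ratios, moderated over all genes by limma. A gene was called, and is said to have risen or fallen, at a limma adjusted p under 0.05 over the 7820 genes tested. On that rule 7.4% of all genes were called, as 4.12% rose and 3.29% fell, and the median log2 ratio of all genes was -0.01.

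Cells that run short of an amino acid accumulate uncharged tRNA, which activates the kinase Gcn2 (Eif2ak4). Gcn2 phosphorylates the initiation factor eIF2, which slows most translation but favours that of Atf4. Atf4 is a transcription factor that, with C/EBP partners, binds composite elements in genes for amino acid synthesis, uptake and tRNA charging. Dividing blood progenitors also draw on serine and folate metabolism for nucleotides.

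The Atf4 element has the core TGATGNAA, and it was sought on both strands from 250 bases before to 50 after each start site in RefSeq promoters (GRCm38.p6). Promoters were found for 30 of the 40 members, and 11 of the 30, 36.7%, held the core. Of all 27025 genes with a promoter in the same table, 4.51% held it. The members were listed for functions in the response that Atf4 serves, so nothing is read from their larger share. Shown here are the 120 bases before the start of Asns and of 3 synthetase genes, 5′ to 3′ on the gene's strand, because they show the element before the starts of the gene with the largest ratio and of genes that charge tRNA. Capitals mark the core or its reverse complement.
Asns, chr6:7693210-7693329, minus strand: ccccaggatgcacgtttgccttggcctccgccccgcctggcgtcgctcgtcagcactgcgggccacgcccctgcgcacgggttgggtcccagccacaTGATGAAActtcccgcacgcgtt
Tars, chr15:11399659-11399778, minus strand: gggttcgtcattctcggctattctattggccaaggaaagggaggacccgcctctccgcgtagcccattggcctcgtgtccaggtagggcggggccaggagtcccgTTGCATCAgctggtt
Gars, chr6:55037881-55038000, plus strand: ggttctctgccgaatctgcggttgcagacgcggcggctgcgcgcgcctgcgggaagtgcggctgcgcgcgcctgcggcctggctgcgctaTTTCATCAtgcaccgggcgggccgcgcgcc
Aars, chr8:111033722-111033841, plus strand: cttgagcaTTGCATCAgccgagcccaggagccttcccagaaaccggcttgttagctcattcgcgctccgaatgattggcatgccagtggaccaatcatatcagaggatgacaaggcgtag
In Asns the core began 23 bases before the start and lay on the gene's strand. In Tars, Gars and Aars it began 15, 30 and 112 bases before the start, on the opposite strand, and Aars held another match after the start.

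In Yars and Iars the match lay just after the start, as 30 bases from 10 before to 20 after it show.
Yars, chr4:129189893-129189922, plus strand: cgacgagctcagcTGATGCAAcccgacggg
Iars, chr13:49682120-49682149, plus strand: gcctggcactgtcagtaTTGCATCAcctcc
The other matches were in Chac1, Pycr1, Slc1a4, Slc7a11 and Trib3, and Slc7a11 held 2. No match was found in this window of the promoters listed for Psat1, Shmt2, Mthfd2, Slc3a2 or Aldh18a1, all members whose signals fell. Of the other members that fell, Yars had a match, and Lars, Nars and Slc7a5 were among the 10 members not searched, with Cars, Eif4ebp1, Hars, Rars, Slc1a5, Vars and Wars. Asns, for which the set was chosen, had a match. The other 6 tested members with a match all had a negative mean ratio. That of Chac1 was close to 0, at -0.02 ± 0.20, with -0.16 and 0.11 on the array types. Of 16 tested members without a match 9 had a negative mean ratio, where 51.6% of all genes did. Leaving out Asns, the median log2 ratio was -0.33 over the 6 members with a match and -0.20 over the 16 without, a description with no test. All of the 6 but Chac1 were synthetases, so the 6 and the 16 also differed in role, and nothing is read from these medians. Elements of the interferon regulatory factors were also counted. GAAA followed after any 2 bases by a further GAAA, on either strand, was in 1 of 30 members' promoters, Qars. That is 3.33% against 3.99% of all genes. GGAA followed after any 2 bases by GAAA was in 0 of 30 against 3.16%. Counts this small in 30 promoters do not show a shortage against all genes. The absence of these letters from the window says nothing of binding.

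Asns makes asparagine from aspartate and glutamine. Its first probe set gave 877 in wild type and 336 in Icsbp-deficient cells on the 430A arrays, and 1015 and 272 on the MOE430_2 arrays. The second gave 448.5 and 68.1 on the 430A arrays and 656 and 238 on the MOE430_2 arrays. Both probe sets were lower in Icsbp-deficient cells on both array types, and for neither did the genotypes overlap across the 4 arrays. The share of all genes without such overlap was not counted, so nothing is read from it, here or for the members below.

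The mean log2 ratio of the first Asns probe set was -1.49 ± 0.16, a 2.81-fold lower signal, from -1.26 on the 430A type and -1.72 on the MOE430_2 type. For the second it was -1.69 ± 0.21, from -2.08 and -1.29, so the probe sets differed in which array type gave the larger ratio. The weakest signal of the second lay near the offset, and its type of probe set, marked x in the platform's names, can also bind related transcripts. Asns is the gene for which the set was chosen, so these values are a description. Gpt2, which forms alanine, was read on both array types by 3 probe sets at 10.3 to 63.3, under the filter on low signals. A further Gpt2 probe set, present on the MOE430_2 arrays alone, gave 122.7 in wild type and 128.1 in Icsbp-deficient cells, a log2 ratio of 0.045.

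**Figure D1:**
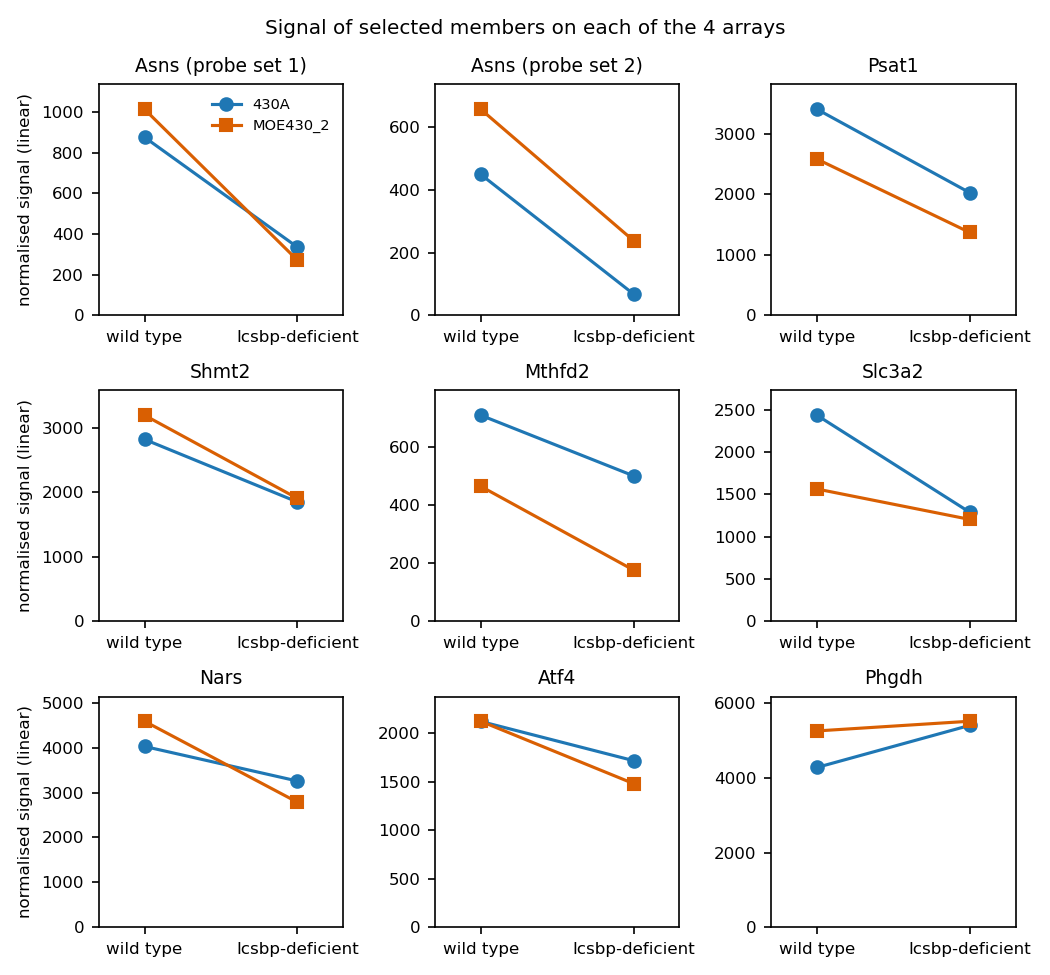
Normalised signal (linear y axis from 0, scaled to each panel) of both Asns probe sets and of 7 other members in wild type and Icsbp-deficient GMP, with 1 array per point and a line joining the arrays of a type. Every line falls except those of Phgdh.

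Of the serine and folate enzymes, 3 fell and 3 were not called, where 3.29% of all genes fell. Phgdh, which takes the first step of serine synthesis from a glycolytic intermediate, gave 4274 in wild type and 5397 in Icsbp-deficient cells on the 430A arrays, and 5249 and 5508 on the MOE430_2 arrays. It was slightly higher in Icsbp-deficient cells on both types, at 0.20 ± 0.11, and was not called. Its other 3 probe sets ranged from -0.01 to 0.11.

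Psat1, the aminotransferase of the next step, fell. It gave 3400.2 and 2024 on the 430A arrays and 2579 and 1368 on the MOE430_2 arrays, so both Icsbp-deficient arrays lay under both wild type arrays. Its mean log2 ratio was -0.81 ± 0.12, 1.76-fold lower, and its second probe set was at -0.84 ± 0.15. Psph, the phosphatase that releases serine, had 778 and 601 on the 430A arrays and 563 and 449 on the MOE430_2 arrays. Its ratio of -0.32 ± 0.14 was not called.

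Both mitochondrial folate enzymes of the set fell. Shmt2, which passes a carbon unit from serine to folate in mitochondria, gave 2819 and 1851 on the 430A arrays and 3193 and 1906.5 on the MOE430_2 arrays. The genotypes did not overlap, and the mean log2 ratio was -0.66 ± 0.12, 1.58-fold lower. All 4 Shmt2 probe sets had negative ratios, from -0.42 to -0.74.

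Mthfd2, which oxidises the carbon unit on mitochondrial folate, gave 710.4 and 502 on the 430A arrays and 465.5 and 177 on the MOE430_2 arrays. It was lower on both types but by unequal amounts, at -0.46 and -1.18, with a mean of -0.82 ± 0.18. Its second probe set was at -0.61 and -0.55. Shmt1, the cytosolic counterpart of Shmt2, had a mean of -0.40 ± 0.15 and was not called, and 1 of its 4 probe sets had opposite signs, at -0.58 and 0.59. Of the 6 members in this role 5 had a negative ratio on both array types, and the differences between enzymes were not tested.

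Proline synthesis was read by Aldh18a1, the enzyme of its first steps from glutamate. It gave 1397 and 856 on the 430A arrays and 1707 and 1327.5 on the MOE430_2 arrays, lower in Icsbp-deficient cells on both, and fell by 0.51 ± 0.14 on the log2 scale. All 5 of its probe sets had negative means, from -0.36 to -0.70.

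Transporters had ratios of opposite sign. Slc3a2 and Slc7a5 form the heavy and light chains of a carrier for large neutral amino acids, and both fell. Slc3a2 gave 2434 and 1289 on the 430A arrays and 1563 and 1204 on the MOE430_2 arrays, at -0.89 and -0.36, with a mean of -0.63 ± 0.15. Slc7a5 gave 1752 and 1320.3 on the 430A arrays and 1042 and 645 on the MOE430_2 arrays, with a mean of -0.52 ± 0.14. Both chains were lower in Icsbp-deficient cells on each array type.

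Slc38a2 and Slc1a5, which carry glutamine and other neutral amino acids, were higher on each type but were not called. Slc38a2 gave 1293.5 and 1999.5 on the 430A arrays and 2069.8 and 2562 on the MOE430_2 arrays, at 0.46 ± 0.13. Another Slc38a2 probe set, present on the MOE430_2 arrays alone, went the other way, at 582.5 and 412 with a log2 ratio of -0.45. Slc1a5 gave 534 and 753 on the 430A arrays and 228 and 310.4 on the MOE430_2 arrays, at 0.42 ± 0.15. Slc7a11, a cystine carrier, and Slc1a4, a carrier of small neutral amino acids, lay under the filter, at 27.6 to 89.2 and at 6.9 to 99.9.

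The regulators had ratios close to 0 or of differing sign, and 0 of 5 tested were called by limma. At an unadjusted p under 0.05 there was 1, Atf4, which 2 other settings called. Atf4 gave 2118 and 1715 on the 430A arrays and 2120.2 and 1479 on the MOE430_2 arrays, lower in Icsbp-deficient cells on both, at -0.40 ± 0.13. Its second probe set was at -0.18 ± 0.15.

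The other tested regulators were Atf5, a relative of Atf4, at 0.12 ± 0.18, Chac1, which degrades glutathione, at -0.02 ± 0.20, Eif4ebp1, which holds back cap-dependent translation, at 0.00 ± 0.14, and Ddit4, an inhibitor of mTORC1, at 0.22 ± 0.20. Of these only Ddit4 was higher on each type, at 0.03 and 0.41, and the others differed in sign between types. Trib3, a pseudokinase induced by Atf4, and Sesn2, a leucine sensor upstream of mTORC1, lay under the filter. Their probe sets gave 2.7 to 76.3 and 19.9 to 127.7.

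**Figure D2:**
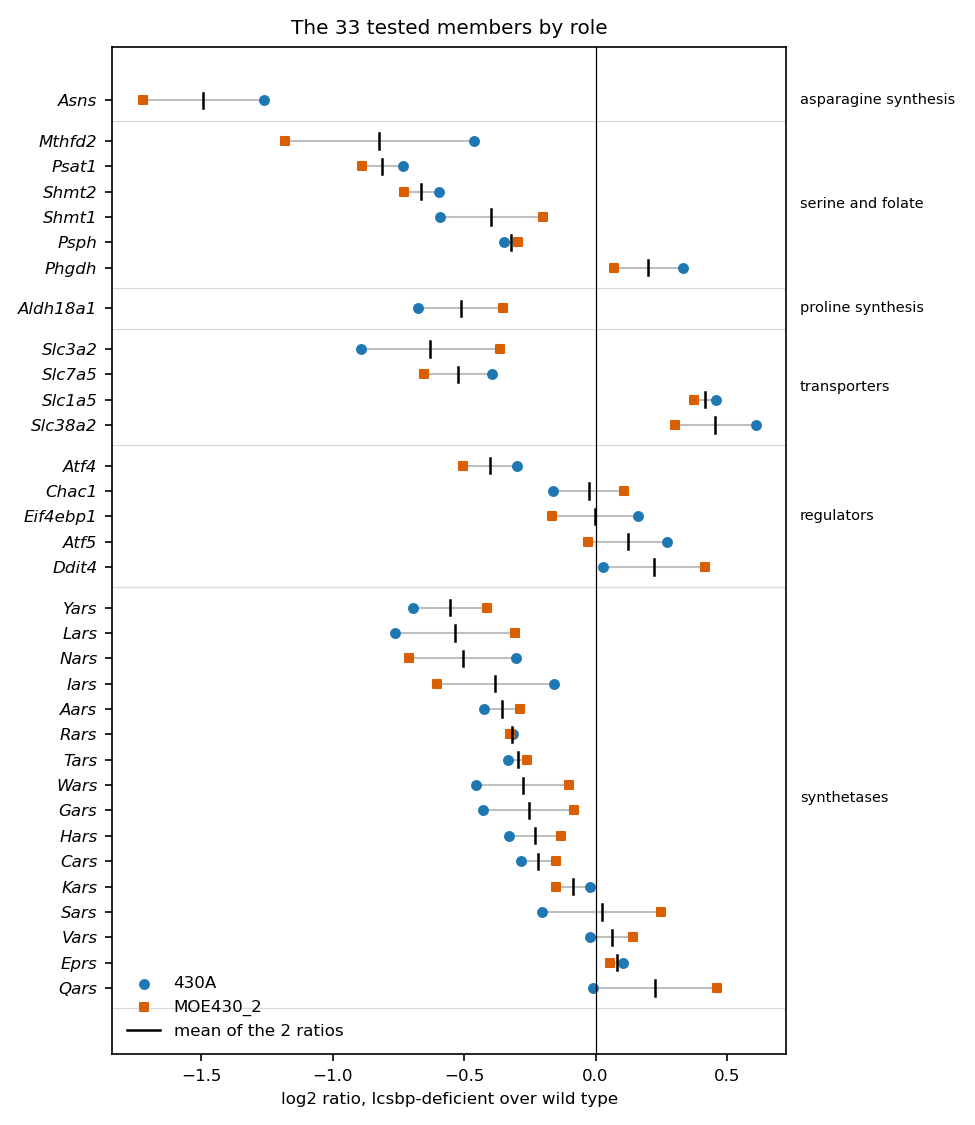
Log2 ratios of Icsbp-deficient over wild type (x axis) for the 33 tested members, grouped by role, with a circle for the 430A arrays, a square for the MOE430_2 arrays and a bar at their mean. Asns lies furthest left at -1.49, and 12 of the 16 synthetases have both points below 0.

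Synthetases charge tRNAs with their amino acids, and 16 of the 17 members were tested. Their ratios were small and mostly negative: 12 of 16 were lower on both array types, where 34.4% of all genes were, and the median was -0.27. Of the 16, 3 fell and 0 rose, beside 3.29% and 4.12% of all genes. At an unadjusted p under 0.05 there were 7 lower and 0 higher, beside 847 and 818 of all 7820 genes. Of 28 tested synthetase probe sets 23 had a negative mean, and of all genes 51.6% did.

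The 3 called were Yars, Lars and Nars, which charge tyrosine, leucine and asparagine. Yars gave 755 and 447.5 on the 430A arrays and 704 and 517 on the MOE430_2 arrays, at -0.55 ± 0.14. Lars gave 1534 and 884 on the 430A arrays and 1762 and 1416 on the MOE430_2 arrays, at -0.53 ± 0.14, with most of the difference on the 430A type. Nars gave 4025 and 3256 on the 430A arrays and 4585 and 2786 on the MOE430_2 arrays, at -0.51 ± 0.12. All 3 were lower in Icsbp-deficient cells on each type. Their genotypes did not overlap, but the share of all genes without overlap was not counted.

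Iars, for isoleucine, was read by 2 probe sets. The one with the higher signal was at -0.38 ± 0.14 and was not called, and the other, at 1685 and 1090.1 on the 430A arrays and 1435 and 905 on the MOE430_2 arrays, was at -0.62 ± 0.13 and fell in the fit over probe sets, in which 2.14% of all probe sets fell. Aars, Rars, Tars, Wars, Gars, Hars, Cars and Kars had means from -0.35 to -0.08, each lower on both types and none called.

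Sars was at 0.02 ± 0.15, Vars at 0.06 ± 0.13, Eprs at 0.08 ± 0.13 and Qars at 0.23 ± 0.14, and of these only Eprs was higher on each type. Eprs, which charges both glutamate and proline, had another probe set at -0.48. Mars, for methionine, gave 1377 and 1394 on the MOE430_2 arrays, a log2 ratio of 0.02. The positive values of Sars and Eprs rested on the probe set read for each gene. Further probe sets gave -0.19 for Sars, -0.09 for Eprs and -0.05 and -0.11 for Qars, and Vars had 1 probe set. As the mean of all tested probe sets 14 of the 16 synthetases were negative, with Qars and Vars positive. Of the synthetases lower on both types, Wars had a further probe set with a positive mean, at 0.06 ± 0.18. Differences between synthetases were not tested.

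**Figure D3:**
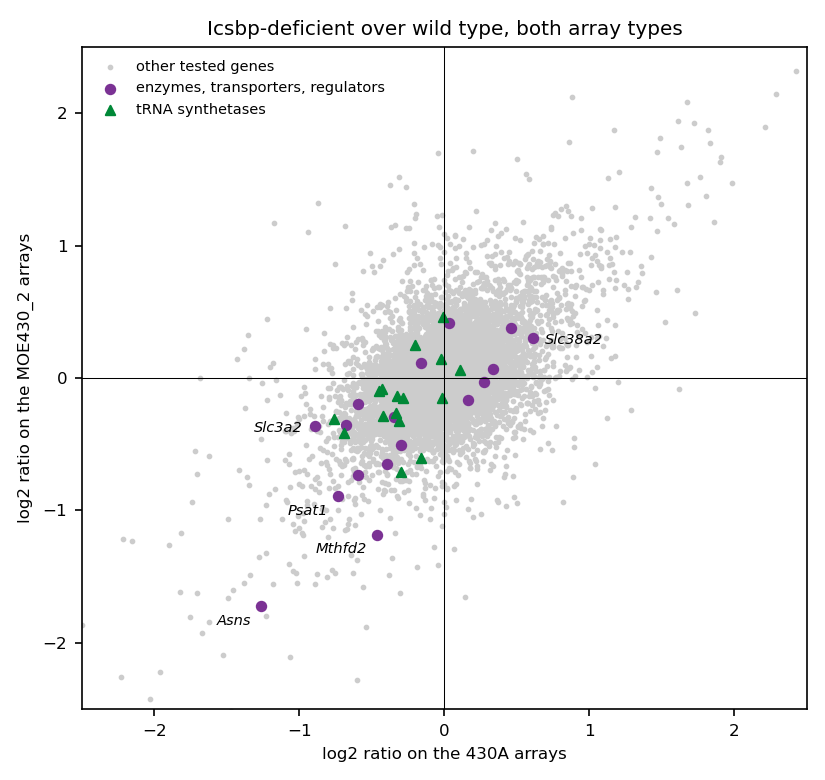
Log2 ratio on the 430A arrays (x axis) against that on the MOE430_2 arrays (y axis) for each tested gene, with members in purple (enzymes, transporters, regulators) or green triangles (synthetases) and 16 genes beyond the axes at 2.5 left out. Most members lie below 0 on both axes, inside the cloud of other genes, with Asns at its lower left edge.

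Over the 32 tested members other than Asns, 9 fell and 0 rose, beside 3.29% and 4.12% of all genes. At an unadjusted p under 0.05, 16 were lower and 2 higher, where 21.3% of all genes passed in either direction. Their median log2 ratio was -0.29 against -0.01 for all tested genes, at -0.31 against -0.02 on the 430A arrays and -0.18 against -0.01 on the MOE430_2 arrays. The ratio was negative on both array types for 21 of the 32 and positive on both for 5, where 34.4% and 30.7% of all genes were. The set was taken up with this contrast known, so nothing is read from the counts.

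These calls rested on array type as a block. Without it 0 members were called, also when any 1 of the 4 arrays was left out of that unblocked fit, and of all genes 1 was called. Aldh18a1, Lars, Slc7a5 and Yars lost their call when the spread was moderated over all probe sets, Psat1 and Shmt2 alone kept theirs without the intensity trend or without the filter, and all 9 kept a negative ratio in every setting run. As the mean of all tested probe sets, Aldh18a1 and Lars were not called and Iars was. With trimmed mean scaling alone or the filter at the 60th percentile Atf4 also fell and Slc38a2 rose, and with an offset of 100 Slc38a2 rose.

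In the unblocked fits, leaving out 1 array moved several ratios by over 1.5 times. Such a fit sets 1 array of a genotype against both array types of the other. Differences in level between the types therefore enter these ratios. Within the 430A and MOE430_2 types, Slc7a5 was at -0.395 and -0.652, and Mthfd2 at -0.463 and -1.183. Without the Icsbp-deficient MOE430_2 array Slc7a5 was at -0.03, Mthfd2 at -0.18 and Psat1 at -0.54. Without the Icsbp-deficient 430A array Aldh18a1 and Lars were both at -0.21, Mthfd2 at -1.46 and Slc7a5 at -1.01. Without the wild type 430A array Slc3a2 was at -0.32, Slc7a5 at -0.16 and Mthfd2 at -0.54. Without the wild type MOE430_2 array Slc7a5 was at -0.89. Leaving out the Icsbp-deficient MOE430_2 array also took Aldh18a1 to -0.82 and Lars to -0.86. The ratios of Shmt2, Yars and Nars moved by less than that whichever array was left out.

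Other genes of the pathway were read from 6 lists drawn by function. Their counts stand beside 3.29% of all genes that fell and 4.12% that rose. Enzymes of amino acid and folate metabolism outside the set fell in 6 of 24 tested cases and rose in 1, with a list median of -0.08. Got1, the cytosolic aminotransferase that interconverts aspartate and oxaloacetate, fell from 798 to 448 on the 430A arrays and from 812 to 454 on the other type, at -0.77 ± 0.14 (limma adjusted p = 0.00726). Odc1, the first enzyme of polyamine synthesis, fell by 0.69 ± 0.11 (adjusted p = 0.00408). Both were lower by nearly the same ratio on each array type. Each call was lost in 2 settings with all arrays.

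Bcat1, the cytosolic aminotransferase of branched-chain amino acids, fell by 0.80 ± 0.17 (adjusted p = 0.0187), at -0.575 and -1.026 on the array types. In the unblocked fit without the Icsbp-deficient MOE430_2 array it was at -0.42. Its call was lost in 4 settings with all arrays, among them the mean of its probe sets (limma adjusted p = 0.0649). Prodh, which degrades proline, fell by 0.56 ± 0.15 (adjusted p = 0.0457), a call lost in 6 settings with all arrays. The other falls were Gcsh, of the glycine cleavage system, at -0.52, and Ahcy, of methionine metabolism, at -0.41. Glul, glutamine synthetase, rose by 0.60 ± 0.14 (adjusted p = 0.0231). It gave 724 and 1038.5 on the 430A arrays and 775 and 1306 on the MOE430_2 arrays. The Glul call was lost in 4 settings with all arrays that kept its sign. Among them was the mean of its probe sets (limma adjusted p = 0.0823). The call was also lost with the values as deposited, where the ratio turned negative. Mthfd1, the cytosolic folate enzyme, did not pass at -0.46 ± 0.14 (adjusted p = 0.0831). It passed in 3 other settings, among them the mean of its probe sets at -0.55 (limma adjusted p = 0.0332). Asnsd1, which carries a domain like that of asparagine synthetase, was at -0.07 and Asrgl1, which breaks down asparagine, at -0.04.

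Further synthetases, proteins of their cytosolic complex and subunits of a mitochondrial tRNA amidotransferase, all outside the set, had mostly negative ratios without calls. Of 5 cytosolic ones 0 were called by limma, 2 at an unadjusted p under 0.05, and all 5 were lower on both types, with Eef1e1, a scaffold of the complex, at -0.43 ± 0.13 (adjusted p = 0.0713). Eef1e1 passed in 2 other settings. The mitochondrial list of 11 includes the amidotransferase subunits Gatb, Gatc and Qrsl1. Of these 11 genes 0 were called, 3 at an unadjusted p under 0.05, and 10 had a negative mean. Tars2 was at -0.39 ± 0.14 (adjusted p = 0.138). The list medians were -0.22 and -0.18.

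In the stress signalling list, which holds the eIF2 kinases and the factors upstream and downstream of Atf4, 1 of 23 fell and 1 rose. Eif2b1, a subunit of the exchange factor that recycles eIF2, fell by 0.56 ± 0.13 (adjusted p = 0.0281), at -0.55 and -0.56 on the array types. The Eif2b1 call was lost in 4 settings with all arrays. Cebpb, a C/EBP partner of Atf4, rose by 0.50 ± 0.13 (adjusted p = 0.0456). That call was lost in 7 settings with all arrays that kept the sign of the ratio. Among them were median scaling (limma adjusted p = 0.0583) and an offset of 16 (0.064). Others were the mean of its probe sets (0.0771) and the spread moderated over all probe sets (0.0641). With the values as deposited the call was also lost, and the Cebpb ratio turned negative. It was at 0.33 and 0.66 on the array types, and at 0.26 in the unblocked fit without the wild type MOE430_2 array. Gcn2 (Eif2ak4) was at 0.09 ± 0.19, Ddit3, a transcription factor downstream of Atf4, at 0.01 ± 0.18, and the endoplasmic reticulum chaperone Hspa5 at -0.13 ± 0.09. Jdp2, a repressor of the same family of factors, had the largest ratio that did not pass, at 0.49 ± 0.14 (adjusted p = 0.063). Jdp2 passed in 4 other settings. The list median was -0.04.

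Among 9 tested amino acid carriers outside the set Slc7a7, the light chain that pairs with Slc3a2 to exchange basic and neutral amino acids, rose by 0.87 ± 0.18 (adjusted p = 0.017) and 0 fell. It gave 126.5 and 257 on the 430A arrays and 78 and 197 on the MOE430_2 arrays. The Slc7a7 call was lost in 3 settings with all arrays. The light chain Slc7a7 and the light chain Slc7a5 thus had ratios of opposite sign, and their partner Slc3a2 fell. Slc25a15, the mitochondrial ornithine carrier, was at -0.39 ± 0.17 (adjusted p = 0.228), and 3 carriers were lower at an unadjusted p under 0.05. Of 24 genes of mTORC1 signalling, which senses amino acids for growth, 0 were called by limma and 2 were lower and 2 higher at an unadjusted p under 0.05. Sesn3, a relative of Sesn2, was at -0.76 ± 0.21 (adjusted p = 0.0528) and passed in 5 other settings. The transcription factor Myc was at -0.02 ± 0.11. Without the block 0 genes of the 6 lists were called.

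**Figure D4:**
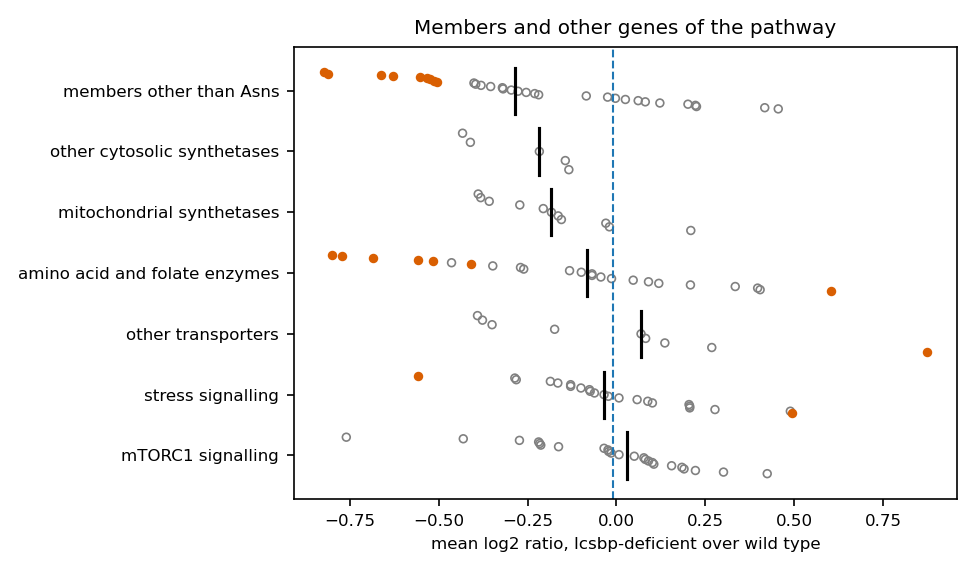
Mean log2 ratio of Icsbp-deficient over wild type (x axis) for each tested member other than Asns and each tested gene of 6 further lists, with filled points for called genes, a vertical offset that only separates points, black bars at list medians and a dashed line at the median of all genes. The medians of the members, both synthetase lists, the enzymes and stress signalling lie left of the dashed line, from -0.29 to -0.04, and those of the transporters and mTORC1 signalling right of it. Both synthetase lists also hold proteins that are not synthetases.

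Signals of genes that mark other blood cell types also differed between the genotypes. Counts of these genes stand beside 3.29% of all genes that fell and 4.12% that rose. In pools of cells, fewer cells of a type and less RNA per cell cannot be told apart. Primary granule genes and other genes that mark GMP were high on all arrays, with Mpo, Elane, Prtn3 and Ctsg between -0.02 and 0.05. Of the 7 tested 1 rose, Igsf6, at 0.79 ± 0.11. Nkg7 at -0.29 ± 0.10 and Ms4a3 at 0.096 ± 0.085 were not called. Of 11 genes of secondary granules and neutrophils 9 rose, and their summed signal went from 11944 to 34833 on the 430A arrays and from 22662 to 63114 on the others. Eosinophil, basophil and mast cell genes fell in 8 of 8 tested cases, where 8 of the 11 with a probe set passed the filter, and their sum went from 6444 to 2350.0 and from 8925 to 2305.

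Of 6 tested genes of stem cells and multipotent progenitors 4 fell, with sums of 6504 and 3167 on the 430A type and of 8858 and 3636 on the MOE430_2 type. Erythroid genes fell in 2 of 6, with sums of 1710.0 and 870.0 and of 2215 and 326. Of 10 proliferation genes 0 were called by limma and 3 were lower at an unadjusted p under 0.05, with sums of 32163 and 28688 and of 40195 and 36390.0. Among monocyte and macrophage genes 3 of 9 rose and 4 fell, with sums of 7422 and 8039 and of 9959 and 10019, and antigen presentation genes fell in 4 of 6. Of the megakaryocyte genes 1 of 4 fell, and of the lymphoid genes 0 of 3 were called, 2 being higher at an unadjusted p under 0.05. No gene of these lists was listed at 0 on any array, and 8 were under 50 on all 4: Mcpt4 of the mast cell list, Alas2 of the erythroid list, Procr of the stem cell list, Ppbp and Vwf of the megakaryocyte list, and Ebf1, Rag1 and Cd3g of the lymphoid list. The part of these shifts in the ratios of Asns and the other members was not tested.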

How the data were processed

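Gene expression in GMP was read on 4 Affymetrix arrays. The authors deposited linear signal intensity, with 22690 probe sets per 430A array and 45101 per MOE430_2 array. The submitters' processing notes name GCOS for the MOE430_2 arrays, and no version, setting or scaling target was given. Per the labels' protocols, RNA for the Icsbp-deficient 430A array went through an ENZO kit and RNA for the MOE430_2 arrays through a one-cycle kit. No kit is given for the wild type 430A array. The 2% trimmed mean of the deposited intensity was 498.5 on that array and 158.6 to 167.1 on the other 3.

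Controls were left out (64 probe sets), arrays were brought to a trimmed mean of 500 over 22626 shared probe sets, 50 was added, and log2 values were quantile normalized within each type. Tests covered 13576 probe sets, those at or above the 40th percentile of the mean. Names come from the platform annotation, updated through RefSeq (GRCm38.p6; 20351 of 20380 probe sets with 1 symbol matched); 691 with several symbols and 1555 unnamed here were left out. A gene was read by its probe set with the highest mean. The test was limma 3.58.1 in R 4.3.3 (two-sided, Benjamini-Hochberg, array type as a block, intensity trend), with 1 residual and 9.65 prior degrees of freedom, and was tested on simulated data. The block stands for array type only, since no label ties the preparations of a type to each other. MOE430_2-only probe sets were normalized over all probe sets of that type. The 3′ over 5′ ratios were 0.765 to 0.818 for Gapdh, and for beta-actin 1 and 1.03 on the 430A type and 1.47 and 1.44 on the MOE430_2 type. The number of arrays limits the precision.

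Members, lists and alternatives were chosen with earlier results of these data known. The rule named Asns, called members and those with a mean ratio of at least 0.5 in size and 1 sign on both types, the highest and lowest of each role, Irf8, and of each further list up to 4 called genes per direction and the largest ratio that did not pass. Other genes were named for their function or to complete a count, after their values were seen.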

Additional observations from a re-analysis of the deposited data

How the results depend on the processing

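Against 579 genes, 9 members other than Asns and 10 further pathway genes called, the counts in the same order were 0, 0 and 0 with the values as deposited, 287, 2 and 2 without the filter on low signals, 330, 2 and 5 without the intensity trend, and 1, 0 and 0 without the replicate block by array type. Members called numbered 5 with median scaling, 4 with an offset of 16 and 5 with the spread moderated over all probe sets, an alternative chosen after seeing the data, which gave 6 further pathway genes; trimmed mean scaling alone gave 16 of these. Members called numbered 11 with trimmed mean scaling alone, 11 with the filter at the 60th percentile and 10 with an offset of 100, each with 1 that rose, and 8 as the mean of probe sets. Leaving out each array in turn, in a model without the block and with a lone array assumed to vary like the others, gave 32 to 36 genes, 0 members and 0 further pathway genes. Without the block 332 genes had an unadjusted p under 0.05, against 1665 with it. The cause of the changes with the filter, trend, offset and scaling was not tested. The median of all genes was between -0.02 and 0.01 in the other scalings and -0.67 with the values as deposited, in which the 430A arrays are on different scales, and there Cebpb was at -0.30, Jdp2 at -0.24 and Glul at -0.16. Slc25a15 was at 0.09 as the mean of its probe sets. The Asns ratio ranged from -2.00 to -1.37 over 13 settings with all arrays, and every member named as having fallen kept its sign in all of them.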

Other observations

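Slc38a1, a glutamine carrier related to Slc38a2, was chosen after its values were seen because its array types disagreed in sign, with log2 ratios of -0.94 on the 430A type and 1.10 on the MOE430_2 type and a mean of 0.08 ± 0.34. Igll1 and Vpreb1, parts of the pre-B cell receptor, were at 0.71 ± 0.20 and 0.64 ± 0.24, higher on both types and not called. Adgre1, a macrophage surface receptor, was at 0.22 and 1.26 on the types and was not called.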
